A study of Mus musculus with 6 samples.

Results

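The 8 long noncoding RNA (lncRNA) genes described here were taken by name from the 49671 genes of the count table, and all 8 were found there. Malat1 and Neat1 were grouped as nuclear-retained RNAs, and Gas5, Snhg1, Snhg3, Snhg6, Snhg8 and Snhg12 as host genes of small nucleolar RNAs (snoRNAs). The RNA came from pancreata of C57BL/6J mouse embryos at 14.5 days post coitum, either controls or treated with 10 µM AMI-5, a small-molecule inhibitor of protein arginine methyltransferases that also acts on other methyltransferases. No transgene or mutant allele is named for either group, and the comparison addressed what AMI-5 does to differentiation of the pancreas. Each group had 3 libraries of total RNA, and each library is a whole organ sample in which epithelial, mesenchymal, vascular and blood cells are mixed. The sources used here do not say if libraries of 1 group stem from separate embryos or cultures, or how many pancreata each held, so the spread behind each p-value may be technical.

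Malat1 is a single-exon transcript that is kept in nuclear speckles, the compartments where splicing factors collect, and its stable 3′ end is made by RNase P cleavage in place of a poly(A) tail. Neat1 is transcribed from the same chromosome region and is the scaffold of paraspeckles, nuclear bodies built with the proteins Sfpq, Nono and Pspc1. The host genes work differently: their introns carry snoRNAs, which guide 2′-O-methylation (C/D box) or pseudouridylation (H/ACA box) of other RNAs. Several of the spliced exonic RNAs, Gas5 and Snhg1 among them, are described as beginning with a pyrimidine tract (5′TOP) and as removed by nonsense-mediated decay. Where RNA lay in the cell, and whether snoRNAs were made, was not measured by gene counts of total RNA.

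Each library gave between 12445425 and 13321899 gene counts in the controls and between 22894312 and 24805188 with AMI-5. Per the labels, the A samples, to which the controls belong by their titles, had Ultra I libraries and the others Ultra II. The titles of treated samples are marked Am, and if Am samples are among the others, kit and treatment cannot be told apart in any difference between the groups. The tissue markers Cpa1, Sox9, Nkx6-1, Pdx1, Ptf1a and Neurog3 were detected in every library, from 8.56 CPM (reads scaled by edgeR to a common library size) for Neurog3 to 8796 CPM for Cpa1. The third AMI-5 library stood apart in Xist, the RNA that coats the inactive X chromosome, at 7.09 CPM against 237 to 538 CPM in the other 5 libraries, and results for the 8 genes are therefore given with and without it. Summed CPM of 5 erythroid markers was 7.64 to 15.1 in the controls and 58.1 to 181 with AMI-5, and that of 6 leukocyte markers was 270 to 316 and 456 to 477. It was 6791 to 7088 and 6879 to 7859 for mesenchyme, 391 to 479 and 318 to 459 for endothelium, and 117 to 132 and 97.9 to 107 for neural markers. Processed pseudogenes took 0.390% ± 0.0175 of counts in the controls and 3.03% ± 0.122 with AMI-5 (SD, n = 3 each). The part of these shifts in the results below was not tested.

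All 8 genes lie on 4 chromosomes, in mm10 coordinates as deposited. Malat1 (ENSMUSG00000092341) covers chr19:5795690-5802672 on the minus strand and Neat1 (ENSMUSG00000092274) covers chr19:5824708-5845478 on the same strand, each counted over its whole span as 1 block of exon. Snhg1 (ENSMUSG00000108414) is also on that chromosome, at chr19:8723475-8726443 on the plus strand. Gas5 (ENSMUSG00000053332) is at chr1:161034422-161038539 on the plus strand and Snhg6 (ENSMUSG00000098234) at chr1:9941959-9944118 on the minus strand. Snhg3 (ENSMUSG00000085241) is at chr4:132348014-132353686 on the minus strand, close to Snhg12 (ENSMUSG00000086290) at chr4:132308678-132311024 on the plus strand. Snhg8 (ENSMUSG00000104960) is at chr3:123507552-123508404 on the minus strand. Snhg1 and Snhg8 were likewise counted over their whole span, and Gas5 over 3760 of the 4118 bases of its span. Counts of these 3 hosts therefore do not separate spliced from unspliced RNA.

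The sequence around the start of transcription is shown because a TATA element and a pyrimidine start are known features of snoRNA host genes. The windows are from RefSeq (GRCm38.p6), read on the strand of the gene, with 40 bases before the annotated start and 20 from it. Capitals mark TATA between 40 and 21 bases before the start and a run of at least 4 C or T bases at the start itself. The table held 7 windows for the 8 genes, 2 of them for Gas5, and none for Neat1 and Snhg6. The positions are chr1:161035126-161035185 (plus) for the second Gas5 start, chr3:123508317-123508376 (minus) for Snhg8, chr4:132308638-132308697 (plus) for Snhg12, chr4:132353667-132353726 (minus) for Snhg3 and chr19:5802653-5802712 (minus) for Malat1.
Gas5: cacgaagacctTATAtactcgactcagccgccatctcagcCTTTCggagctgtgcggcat
Snhg8: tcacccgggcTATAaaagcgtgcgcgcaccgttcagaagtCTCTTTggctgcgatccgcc
Snhg12: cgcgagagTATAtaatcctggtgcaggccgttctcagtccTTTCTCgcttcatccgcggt
Snhg3: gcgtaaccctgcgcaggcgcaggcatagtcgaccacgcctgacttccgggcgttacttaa
Malat1: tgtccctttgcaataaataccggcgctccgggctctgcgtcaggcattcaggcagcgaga

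TATA stood at that distance in 4 of the 7 windows, those of Snhg1, Snhg8, Snhg12 and the second Gas5 start, against 5.34% of the 32851 RefSeq windows of mouse genes. The first 4 bases were all C or T in 3 of the 7, against 6.86% of all windows. Both features met in the same 3 of the 7, against 0.35%. These 3 were Snhg8, Snhg12 and the second Gas5 start. Snhg1 had TATA, but only 3 C or T bases in a row at its annotated start. The windows of Snhg3, Malat1 and the first Gas5 start, the last not shown, had neither. Over the full 300 bases of each window (250 before the start and 50 after), the C/EBP-ATF composite letters TGATGNAA were found on neither strand in any of the 7 windows, against 3.97% of all, the E box letters CACGTG in none, against 7.15%, and the NRF1 letters GCGCATGC in none, against 2.71%. The ETS letters CCGGAAGT were found in 1 window, that of Snhg3, against 3.89% of all, and the letters CCAAT in 2, those of Snhg8 and Snhg3, against 37.4%. A match of letters is a description of the window, and no match says only that these letters are not in it.

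Snhg1 starts next to Slc3a2, the heavy chain of several amino acid transporters, which is read in the other direction. The 119 bases from the deposited start of Slc3a2 to the RefSeq start of Snhg1 are shown, chr19:8723369-8723487 on the plus strand. Capitals mark the first base of each gene at these starts and the TATA of Snhg1.
Slc3a2-Snhg1: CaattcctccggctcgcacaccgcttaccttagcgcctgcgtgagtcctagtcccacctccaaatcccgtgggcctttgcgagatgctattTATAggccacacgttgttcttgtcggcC

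By mean CPM, Malat1 ranked 4 among the 829 lncRNA genes tested, Gas5 ranked 9 and Neat1 13. The Snhg genes ranked from 18 for Snhg1 to 90 for Snhg3. Among all 17519 genes tested, Malat1 ranked 115 and Gas5 420, whereas Snhg3 ranked 10890. The name "abundant" thus holds among lncRNAs for the 8 genes, and among all genes for Malat1 and Gas5 more than for Snhg3. Together the 8 genes took 0.119% ± 0.0205 of counts in the controls and 0.106% ± 0.00640 with AMI-5 (SD, n = 3 each), which did not differ beyond the spread (exact two-sided permutation test over libraries, p = 0.4, adjusted p = 0.4 over 7 classes of genes).

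Per kilobase of exon, the order in the controls ran from Malat1 at 95.6 ± 19.7 CPM per kilobase over Gas5 at 59.996 ± 18.5, Snhg8 at 30.9 ± 1.68, Snhg1 at 20.6 ± 0.959, Snhg12 at 15.0 ± 1.22, Snhg6 at 12.3 ± 1.04 and Snhg3 at 9.95 ± 0.992 to Neat1 at 5.98 ± 1.32 (SD, n = 3). No pair of neighbours in that order overlapped between the control libraries. Snhg6 and Snhg3 came closest, with the lowest Snhg6 library at 11.1 and the highest Snhg3 library at 10.998. The length used includes exon bases shared with other genes on the same strand, from 0.0% for Snhg6 to 29.8% for Snhg3. Reads in such bases may have been left uncounted. Whether the order, that of Snhg6 and Snhg3 above all, holds over unshared bases was not tested. With AMI-5, Gas5 came first at 78.7 ± 5.80 CPM per kilobase and Malat1 second at 71.0 ± 8.39, and their libraries overlapped. Snhg12 at 19.9 ± 2.02 and Snhg6 at 17.6 ± 1.70 overlapped as well, and the other neighbours kept their order without overlap.

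**Figure D1:**
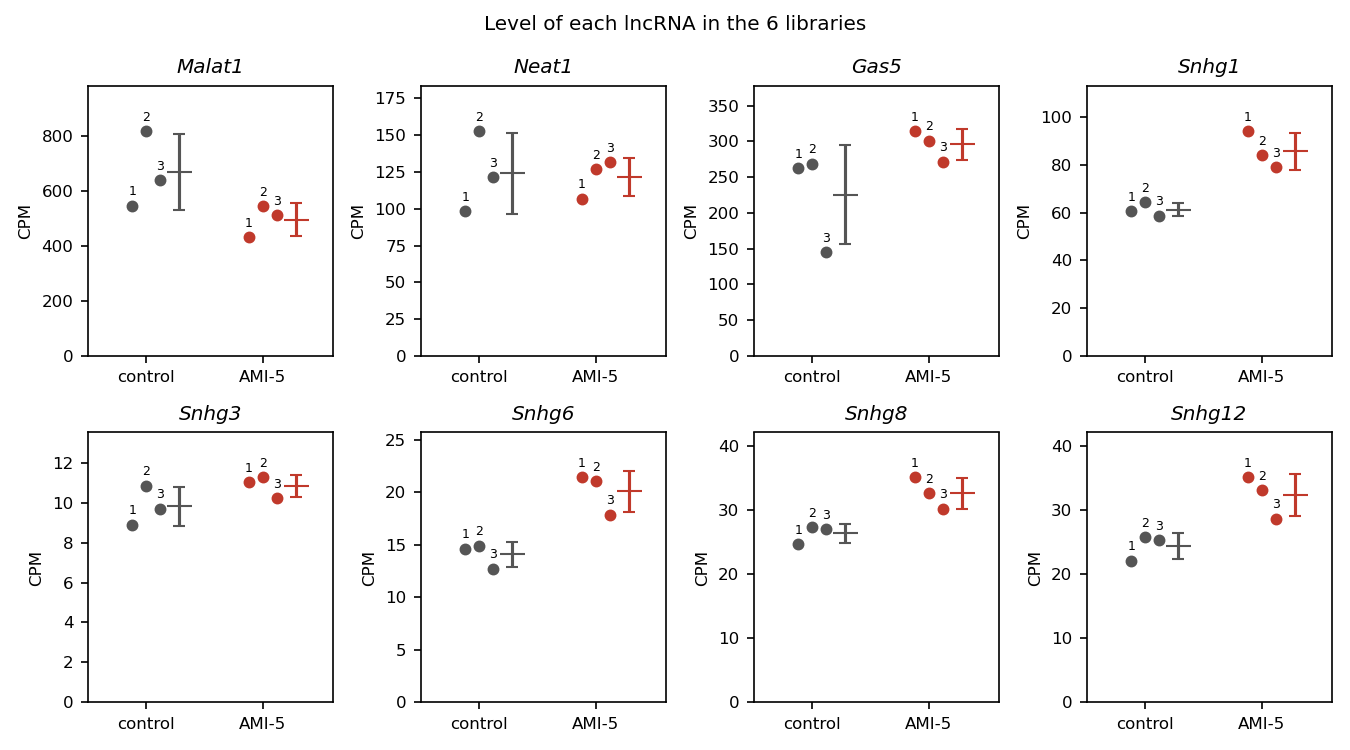
Level of each of the 8 lncRNAs in CPM (y axis, linear from 0, own scale per panel) in the 3 control and the 3 AMI-5 libraries, numbered by replicate, with mean and SD beside the points. Snhg1, Snhg6, Snhg8, Snhg12 and Gas5 lie higher in every AMI-5 library than in any control library, Malat1 lies lower, and Neat1 and Snhg3 overlap.

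Of the 8 genes, 4 rose with AMI-5 (adjusted p under 0.05 in edgeR's quasi-likelihood test with Benjamini-Hochberg adjustment), namely the snoRNA hosts Snhg1, Snhg6, Snhg8 and Snhg12, and none fell. These calls depend on how trends with GC content and transcript length are treated. With both removed over protein-coding and lncRNA genes, 0 of the 8 were higher and 2 (Malat1 and Snhg3) lower. Over the same genes, 1 was higher and 1 lower with the GC trend alone removed. With the length trend alone removed, 3 were higher and 0 lower. With both removed over the whole table, 1 (Snhg1) was higher and 5 lower, 3 of the 4 hosts among them. The whole table includes the processed pseudogenes, and their part in that result was not tested. Over all genes tested 54.1% were called, 27.5% higher and 26.6% lower, so calls were common in this comparison, and within the 829 lncRNA genes 16.6% were called higher and 11.6% lower. The median log2 fold change was 0.35 over the 8 genes, -0.0013 over all genes and 0.052 over lncRNA genes. In these bulk samples, fewer cells of a type and less RNA per cell cannot be told apart. The groups did not overlap for 6 of the 8 genes (61.9% of all genes), with AMI-5 above for 5 (31.3% of all genes) and below for 1 (30.6% of all genes).

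Malat1 stood at 547, 818 and 639 CPM in the controls and at 431, 545 and 512 CPM with AMI-5. Each AMI-5 library was below the lowest control library, by as little as 1.81 CPM for AMI-5 replicate 2. The fitted log2 fold change was -0.43 (SE 0.17), a level 0.743 times that of the controls, and did not pass the threshold (edgeR, adjusted p = 0.0791). Malat1 was lower under each of the 18 other settings tried, with log2 fold changes of -0.26 to -0.68, and passed the threshold in 6 of them, among them the fit without control 1 (log2 fold change -0.56, edgeR adjusted p = 0.0127) and the removal of the trends with GC content and with transcript length over protein-coding and lncRNA genes (-0.61, edgeR adjusted p = 0.0303). Without AMI-5 replicate 3 the value was -0.44 (edgeR adjusted p = 0.168).

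Neat1 stood at 98.3, 153 and 121 CPM in the controls and at 107, 127 and 132 CPM with AMI-5. The AMI-5 libraries lay inside the range of the controls. The log2 fold change was -0.03 (SE 0.18; edgeR adjusted p = 0.901), and -0.08 without AMI-5 replicate 3. Its sign turned in 4 of the 18 settings, each time within 0.15 of 0.

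Malat1 and Neat1 kept a steady ratio within each group, and it differed between the groups. There were 5.56, 5.35 and 5.26 Malat1 reads per Neat1 read in the controls and 4.04, 4.30 and 3.89 with AMI-5. All AMI-5 ratios were below all control ratios (exact two-sided permutation p = 0.1, the smallest that 3 against 3 libraries allow, and adjusted p = 0.12 over 6 ratios). Both RNAs were highest in control 2 among the controls, and lowest in control 1.

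Gas5, whose spliced RNA accumulates when growth stops and can bind the glucocorticoid receptor, stood at 262, 269 and 145 CPM in the controls and at 315, 301 and 272 CPM with AMI-5. Control 3 was far below the other 2 controls, and the lowest AMI-5 library lay 2.93 CPM above control 2. The log2 fold change was 0.39 (SE 0.27) and did not pass the threshold (edgeR adjusted p = 0.288). Without control 3 it was 0.15 (edgeR adjusted p = 0.101), and without AMI-5 replicate 3 it was 0.47 (edgeR adjusted p = 0.344). Gas5 reads per Snhg1 read were 4.32, 4.18 and 2.48 in the controls and 3.34, 3.59 and 3.44 with AMI-5 (exact permutation p = 1.0, adjusted p = 1.0), so control 3 was low in Gas5 while its Snhg1 level was like that of the other controls.

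Snhg1 gave the smallest p among the 8 genes. It stood at 60.7, 64.3 and 58.7 CPM in the controls and at 94.2, 83.9 and 79.1 CPM with AMI-5. The lowest AMI-5 library was 14.8 CPM above the highest control library. The level was 1.40 times that of the controls (log2 fold change 0.48, SE 0.072; edgeR adjusted p = 0.000142), and without AMI-5 replicate 3 the log2 fold change was 0.56 (edgeR adjusted p = 7.58e-05). With both trends removed over protein-coding and lncRNA genes it was 0.14 and not called (edgeR adjusted p = 0.114).

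Snhg6, which hosts the C/D box snoRNA Snord87, stood at 14.6, 14.9 and 12.7 CPM in the controls and at 21.4, 21.1 and 17.9 CPM with AMI-5. The groups were apart by 2.97 CPM. The fold was 1.43 (log2 fold change 0.51, SE 0.11; edgeR adjusted p = 0.00144), and the log2 fold change was 0.61 without AMI-5 replicate 3 (edgeR adjusted p = 0.000625). With both trends removed, Snhg6 was at 0.038 over protein-coding and lncRNA genes (edgeR adjusted p = 0.78) and was called lower, at -1.25, over the whole table (edgeR adjusted p = 1.07e-07).

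Snhg12, which hosts H/ACA snoRNAs and Snord99, stood at 22.1, 25.8 and 25.4 CPM in the controls and at 35.1, 33.1 and 28.7 CPM with AMI-5. Its AMI-5 libraries were all above the controls, replicate 3 by the least. The log2 fold change was 0.40 (SE 0.095; edgeR adjusted p = 0.00348), a 1.32-fold level, and 0.50 without AMI-5 replicate 3 (edgeR adjusted p = 0.00114). Removal of both trends gave 0.25 over protein-coding and lncRNA genes (edgeR adjusted p = 0.0561) and a call in the other direction, -0.48, over the whole table (edgeR adjusted p = 0.000685).

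Snhg8, the host of the H/ACA snoRNA Snora24, stood at 24.7, 27.3 and 27.0 CPM in the controls and at 35.0, 32.6 and 30.2 CPM with AMI-5. The gap between the groups was 2.91 CPM. Its rise was the least of the 4, 1.24-fold (log2 fold change 0.31, SE 0.082; edgeR adjusted p = 0.00738), and 0.38 on the log2 scale without AMI-5 replicate 3 (edgeR adjusted p = 0.0053). With libraries scaled by their totals only it was 0.21 and no longer passed the threshold (edgeR adjusted p = 0.0603), as it did not at 0.068 with the length trend alone removed (edgeR adjusted p = 0.514). The direction turned with both trends removed, to -0.14 over protein-coding and lncRNA genes (edgeR adjusted p = 0.208) and to -1.74 over the whole table, then called lower (edgeR adjusted p = 5.02e-10).

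Snhg3, whose introns carry a pair of long H/ACA snoRNAs, was the host with the fewest reads, at 8.90, 10.8 and 9.69 CPM in the controls and 11.02, 11.3 and 10.2 CPM with AMI-5. AMI-5 replicate 3 fell inside the range of the controls. The log2 fold change was 0.14 (SE 0.11; edgeR adjusted p = 0.323), and 0.20 without that library (edgeR adjusted p = 0.253). The value was below 0 in 4 of the 18 alternatives and Snhg3 was called in 2 of them, as lower: -0.35 with both trends removed over protein-coding and lncRNA genes (edgeR adjusted p = 0.0329) and -1.83 over the whole table (edgeR adjusted p = 1.63e-08). Of the 50-base words of Snhg3, 60.1% also occur in another annotated gene, against 1.33% to 10.6% for the other 7 genes. That share includes words of Gm17300, which covers 705 of the 986 Snhg3 exon bases on the opposite strand. Gm17300 had at most 2 reads in a library. Genes on the same strand share 29.8% of the Snhg3 exon bases, against 0.0% to 20.9% for the other 7 genes. How far shared sequence makes the Snhg3 level less certain was not tested.

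In each of the 4 hosts that rose, replicate 1 was the highest AMI-5 library and replicate 3 the lowest. Summed over the 6 hosts, there were 0.720, 0.504 and 0.437 host reads per Malat1 read in the controls and 1.19, 0.886 and 0.856 with AMI-5 (0.553 ± 0.148 and 0.976 ± 0.183, SD, n = 3 each). The groups did not overlap (exact permutation p = 0.1, adjusted p = 0.12). As a share of all counts, the 6 hosts took 0.0372% ± 0.00677 in the controls and 0.0462% ± 0.00393 with AMI-5 (exact permutation p = 0.2, adjusted p = 0.233).

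Over the genes of the table the change with AMI-5 differed by GC content, which is 40.5% to 47.6% in the 8 lncRNAs. The median log2 fold change of protein-coding and lncRNA genes was 0.35 in genes under 40% GC (GC of the longest transcript), 0.16 from 40% to 45%, -0.0038 from 45% to 50%, -0.15 from 50% to 55% and -0.31 from 55% up. Malat1, Gas5, Snhg1, Snhg3 and Snhg6 have 40.5% to 42.7% GC, where the middle 50% of genes lay between -0.049 and 0.38. Snhg1 at 0.48 and Snhg6 at 0.51 were above that range, Gas5 at 0.39 was just above it, Snhg3 at 0.14 inside it and Malat1 at -0.43 below it. Snhg8, Neat1 and Snhg12 have 45.7% to 47.6% GC, where the range was -0.22 to 0.23, and Snhg8 at 0.31 and Snhg12 at 0.40 were above it. By length the medians of protein-coding and lncRNA genes differed less, from -0.0905 at 1000 to 2000 bases to -0.0106 from 8000 bases up.

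**Figure D2:**
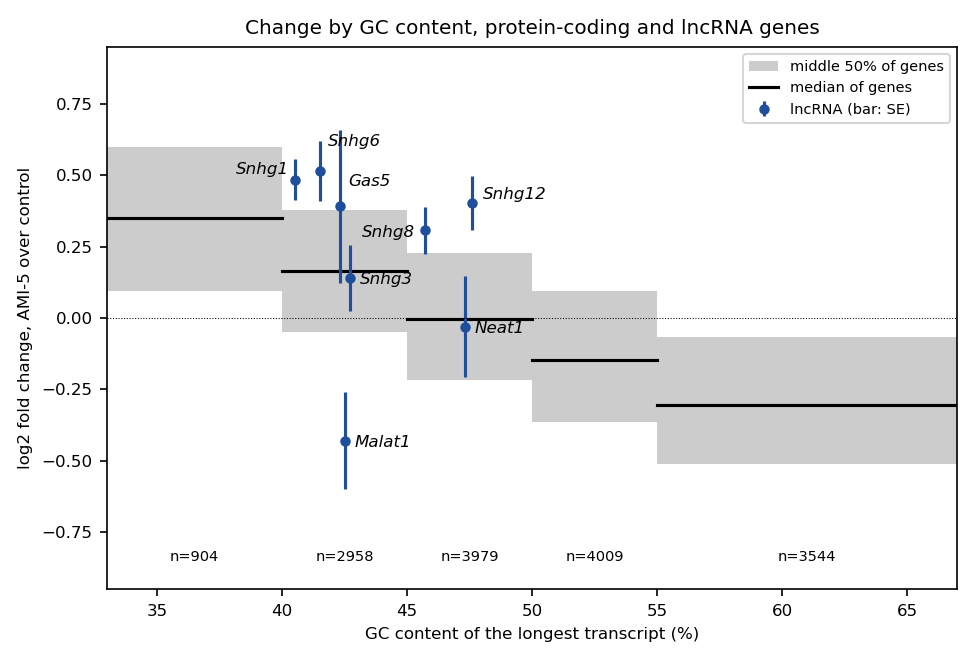
Log2 fold change (AMI-5 over control, y axis) against the GC content of the longest transcript (x axis, percent). Lines are medians and grey boxes the middle 50% of protein-coding and lncRNA genes in each bin of GC content, with the number of genes below and the outer bins open-ended, and points are the 8 lncRNAs with SE. Malat1 lies below the box of its bin and Snhg1, Snhg6, Snhg8 and Snhg12 above theirs.

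With the GC trend alone removed, Snhg12 still passed the threshold, while Snhg1 at 0.18 (edgeR adjusted p = 0.0726), Snhg6 at 0.25 (0.0824) and Snhg8 at 0.18 (0.108) did not, and Malat1 at -0.67 did (edgeR adjusted p = 0.0236). With both the GC and the length trend taken out over protein-coding and lncRNA genes, none of the 4 hosts was called, as given above for each. Under RLE, upper-quartile and totals-only scaling and with each library left out in turn, the 4 hosts passed the threshold, apart from Snhg8 under totals only.

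**Figure D3:**
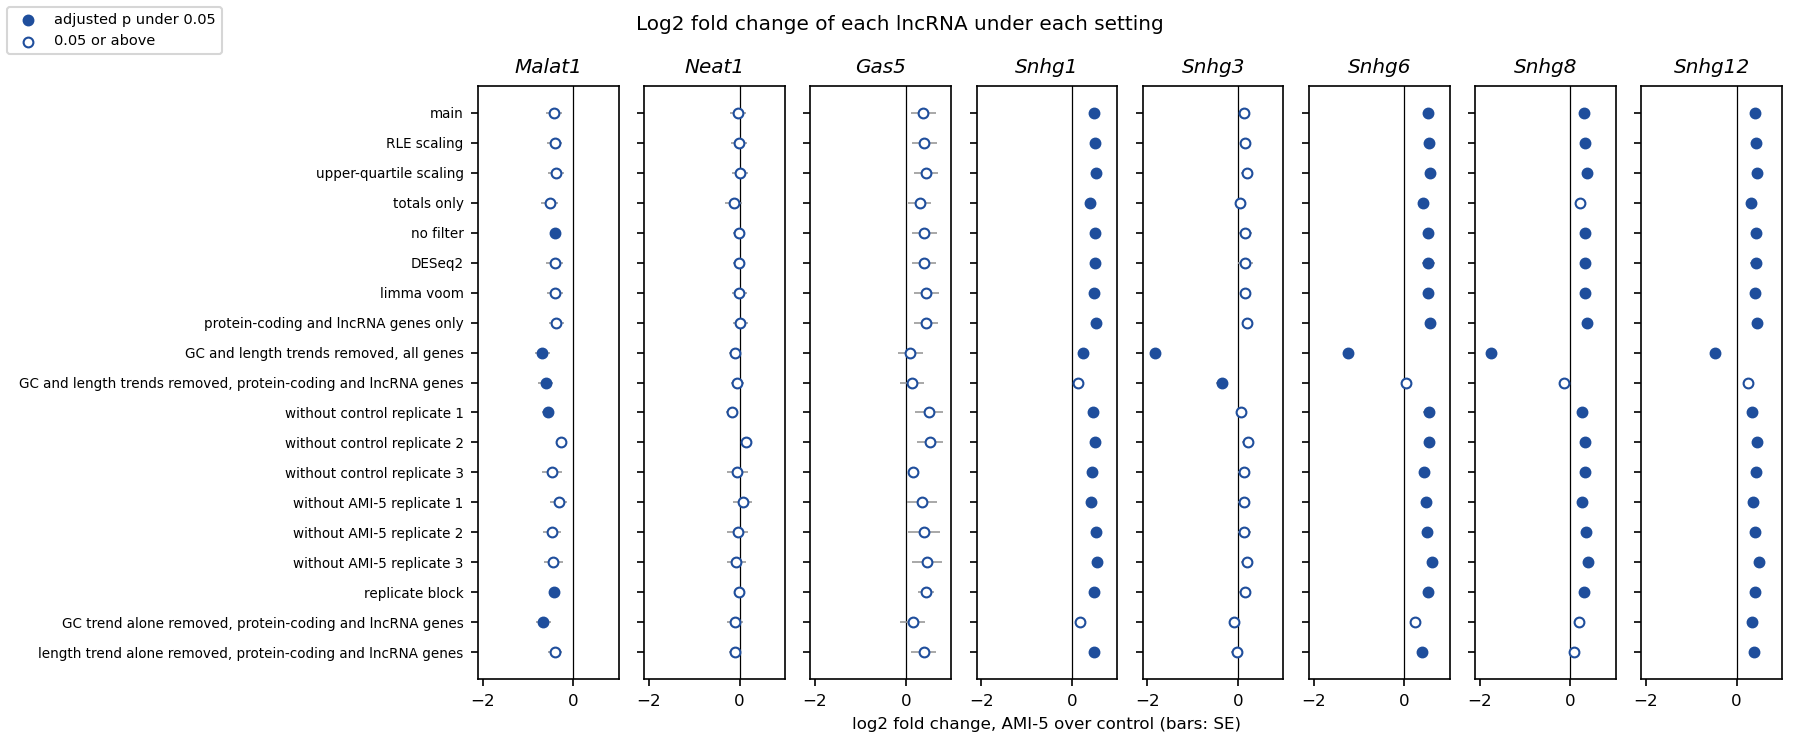
Log2 fold change of each of the 8 lncRNAs (x axis, one panel per gene, with SE) under the reported fit, named main, and each of the 18 alternatives (y axis), with filled points for adjusted p under 0.05. Snhg1 lies above 0 under every setting and Malat1 below 0, while Snhg3, Snhg6, Snhg8 and Snhg12 turn below 0 when trends are removed over all genes.

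The snoRNAs inside the hosts were next looked for in the same table. There were 27 annotated snoRNA genes inside the 6 hosts on the same strand, 10 in Gas5, 8 in Snhg1, 5 in Snhg12, 2 in Snhg3 and 1 each in Snhg6 and Snhg8. The 22 whose bases lie wholly inside an annotated exon of the host had 0 reads in all 6 libraries. Of the other 5, 4 had reads, 274 in all, of which 260 were in Snhg3, 12 in Snord87 of Snhg6 and 2 in a Snora16a entry of Snhg12. For the 22, absence of the RNA and reads left uncounted where a snoRNA and its host overlap cannot be told apart. The opposite strand was kept apart: Gm37376, which lies wholly inside the Malat1 exon on the other strand, had 4 to 18 reads per library where Malat1 had 7064 to 12248.

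The readable snoRNAs are shown to make plain how alike the Snhg3 pair is and what the Snhg6 snoRNA carries. Snora73a (chr4:132352775-132352979, minus strand) and Snora73b (chr4:132352322-132352526, minus strand) are 205 bases long each and differ at the 7 bases in capitals, an identity of 96.6%. Snord87 (chr1:9942463-9942549, minus strand) has its C box, which binds the core proteins of a C/D snoRNP, and its D box in capitals. All 3 were read from the mm10 genome at the positions in GENCODE M21.
Snora73a: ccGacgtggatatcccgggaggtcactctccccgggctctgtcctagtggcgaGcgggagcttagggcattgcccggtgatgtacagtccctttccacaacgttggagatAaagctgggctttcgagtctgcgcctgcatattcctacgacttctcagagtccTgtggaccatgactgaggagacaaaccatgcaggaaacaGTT
Snora73b: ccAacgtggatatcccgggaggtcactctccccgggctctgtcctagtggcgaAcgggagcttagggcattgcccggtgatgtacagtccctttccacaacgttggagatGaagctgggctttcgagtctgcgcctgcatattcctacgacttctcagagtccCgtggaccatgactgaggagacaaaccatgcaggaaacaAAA
Snord87: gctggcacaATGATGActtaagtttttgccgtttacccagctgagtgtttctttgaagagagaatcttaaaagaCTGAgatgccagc

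Snora73b, in an intron of Snhg3 and also inside the span of Rcc1 on the same strand, fell with AMI-5. It had 41, 44 and 57 reads in the controls and 33, 36 and 37 with AMI-5, in libraries of greater depth, which is 3.17, 3.20 and 4.31 CPM against 1.48, 1.602 and 1.56 CPM. The AMI-5 libraries were all below the controls, with a log2 fold change of -1.20 (SE 0.21; edgeR adjusted p = 0.000467). Per Snhg3 read there were 0.366 ± 0.0754 Snora73b reads in the controls and 0.143 ± 0.00940 with AMI-5 (SD, n = 3; exact permutation p = 0.1, adjusted p = 0.12). Rcc1 had more reads than Snhg3 and itself fell (log2 fold change -0.71). No ratio of Snora73b to Rcc1 was taken, so the size of the drop holds for Snhg3 reads only. Reads of Snora73a, which overlaps an Snhg3 exon over 77.6% of its bases, were 0 to 3 per library, and reads that fit both copies could have been assigned to either or dropped. Over all 1507 snoRNA genes, counts were 0.00537% ± 0.00102 of the total in the controls and 0.00321% ± 0.000240 with AMI-5 (exact permutation p = 0.1, adjusted p = 0.175).

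Protein-coding genes that share a start region or sequence with a host did not all move as the host did. Slc3a2, whose start is 106 bases from that of Snhg1, stood at 128, 124 and 117 CPM in the controls and 198, 193 and 178 CPM with AMI-5 and rose (log2 fold change 0.63, SE 0.062; edgeR adjusted p = 4.57e-06). Snhg1 reads per Slc3a2 read were 0.4996 ± 0.0221 in the controls and 0.452 ± 0.0214 with AMI-5, with control 1 and AMI-5 replicate 1 equal to 3 digits at 0.476 (exact permutation p = 0.1, adjusted p = 0.12). Rcc1, the nucleotide exchange factor of Ran, overlaps Snhg3 on the same strand and shares 135 exonic bases with it. It fell from 63.2, 60.6 and 63.6 CPM to 38.003, 37.6 and 38.9 CPM (log2 fold change -0.71, SE 0.056; edgeR adjusted p = 6.72e-07), so Snhg3 reads per Rcc1 read went from 0.157 ± 0.0197 to 0.284 ± 0.0189 (exact permutation p = 0.1, adjusted p = 0.12). Zbtb37, a zinc finger gene that overlaps the span of Gas5 on the other strand, had a log2 fold change of 0.16 (SE 0.11; edgeR adjusted p = 0.238). Mcmdc2 and Gm17300, on the strand opposite to Snhg6 and Snhg3, had at most 8 and 2 reads in a library.

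Other snoRNA host lncRNAs held calls in both directions. Of 16 listed, 12 were found in the table by symbol (Snhg4, Snhg7, Snhg10 and Snhg16 were not) and 11 were tested; 3 rose, 3 fell and 5 did not pass, with a median log2 fold change of -0.042. Those counts lie near the shares over all genes (27.5% higher and 26.6% lower), and over lncRNA genes the shares were 16.6% and 11.6%. Zfas1, host of C/D snoRNAs at the 5′ end of Znfx1, went up from 84.4 ± 7.68 to 110.02 ± 8.998 CPM (log2 fold change 0.38, SE 0.079; edgeR adjusted p = 0.00152), and Snhg14, the long host in the Prader-Willi region, from 4.76 ± 0.267 to 8.26 ± 0.539 CPM (0.79, SE 0.14). Rian, the imprinted host of the chromosome 12 cluster, went down from 615 ± 46.3 to 423 ± 31.0 CPM (log2 fold change -0.54, SE 0.072; edgeR adjusted p = 5.72e-05), and Snhg17 fell from 49.1 ± 5.15 to 38.4 ± 2.07 CPM (-0.35, SE 0.081). Without AMI-5 replicate 3, 4 of 10 rose and 2 fell.

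Among 13 other lncRNAs known for nuclear or imprinted roles, 1 rose and 4 fell, with a median of -0.21. The shares over all genes tested were 27.5% higher and 26.6% lower, and over lncRNA genes 16.6% and 11.6%. H19, an imprinted lncRNA of fetal tissues, was the most abundant of these and fell in CPM from 10062 ± 539.5 to 6469.7 ± 139 (log2 fold change -0.64, SE 0.064; edgeR adjusted p = 5.46e-06). Meg3 fell by 1.01 (SE 0.17) and Mirg by 1.23 (SE 0.15) on the log2 scale, and both lie with Rian in the imprinted Dlk1-Dio3 region. Miat, a nuclear lncRNA abundant in neural cells, fell by 1.37 (SE 0.20) on that scale. Tug1 went up from 93.3 ± 1.59 to 125 ± 3.93 CPM (log2 fold change 0.42, SE 0.055; edgeR adjusted p = 4.38e-05). All lncRNA genes together took 4.49% ± 0.477 of counts in the controls and 2.60% ± 0.386 with AMI-5 (exact permutation p = 0.1, adjusted p = 0.175), and Gm42418, the highest of them and named here after its values were seen, had means of 24516 and 12876 CPM. Such a sum follows its most abundant genes, here Gm42418 and H19. Over the lncRNA genes tested the median log2 fold change was 0.0525, and more were called higher than lower.

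**Figure D4:**
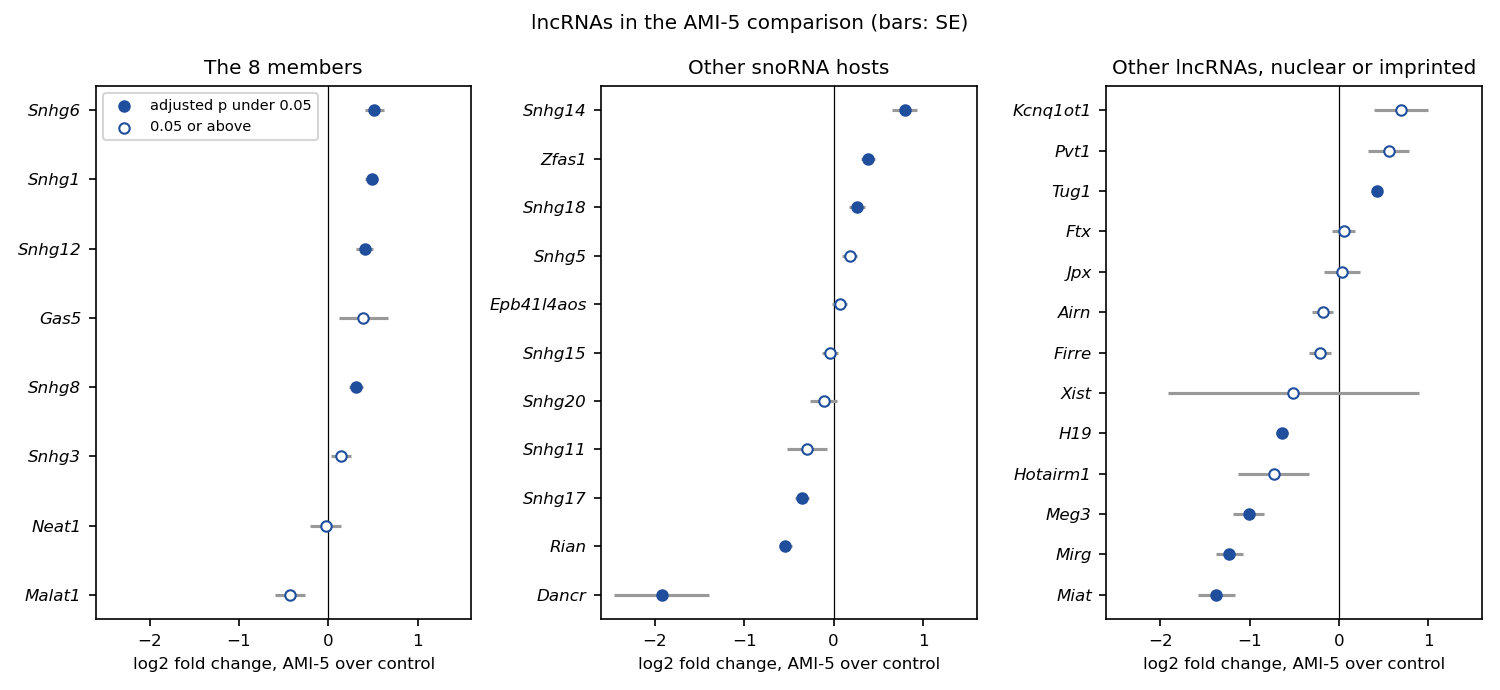
Log2 fold change (AMI-5 over control, x axis) with SE of the 8 lncRNAs, 11 other snoRNA hosts and 13 other lncRNAs, with filled points for adjusted p under 0.05 and open points for the rest. The 4 called members lie between 0.31 and 0.51, whereas other hosts range from -1.92 for Dancr to 0.79 for Snhg14. Dancr had only 2 to 16 reads per library (SE 0.53).

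Genes of paraspeckle proteins, the partners of Neat1, were lower with AMI-5 while Neat1 itself stayed within its spread. Of 17 tested, 14 fell and 0 rose, with a median log2 fold change of -0.42, where 30.6% of all protein-coding genes tested fell, 20.1% rose and their median was -0.06. The RNA-binding proteins Ewsr1 (353 ± 13.9 to 188 ± 4.36 CPM, log2 fold change -0.91, SE 0.055) and Taf15 (-0.76, SE 0.057) fell, as did Sfpq, which binds Neat1 as a dimer with Nono, from 443 ± 22.5 to 281 ± 4.76 CPM (-0.66, SE 0.056; edgeR adjusted p = 1.43e-06). Hnrnpa1 fell by 0.98 (SE 0.069) on the log2 scale, and 28.2% of its sequence words occur in another gene. Of the 8 genes of this list with under 5% of such words, 7 fell. With both trends taken out over protein-coding and lncRNA genes, 16 of the 17 fell.

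The list for Malat1 held nuclear speckle and splicing proteins, RNase P subunits and other factors that bind or process its 3′ end. Of 21 genes, 1 was higher and 11 lower, with a median of -0.25, beside 20.1% higher and 30.6% lower over all protein-coding genes tested. Srsf5, a splicing factor of the SR family, fell from 374 ± 14.0 to 214 ± 6.64 CPM (log2 fold change -0.80, SE 0.055; edgeR adjusted p = 1.83e-07), and Srsf2 (-0.52, SE 0.053), Srrm1 (-0.44, SE 0.056), Srsf7 (-0.39, SE 0.055) and Srrm2 (-0.50, SE 0.15) fell as well. Son, the scaffold of speckles, was at 374 ± 34.0 and 406 ± 36.5 CPM (0.12, SE 0.082; edgeR adjusted p = 0.255). The called gene that rose was Pop4, a subunit of RNase P, at 0.49 on the log2 scale (edgeR adjusted p = 0.0418), and it was not called in the fits that left out control 2, control 3 or the first or the second AMI-5 library.

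Of 17 genes for snoRNP core proteins and assembly factors, 10 fell and 1, Snu13 at 0.34 (edgeR adjusted p = 0.0446), rose, with a median of -0.31. Among all protein-coding genes tested, 30.6% fell and 20.1% rose. No gene of the list was called higher without any 1 of the 3 controls, without AMI-5 replicate 1 or with DESeq2. Fbl, the methyltransferase of C/D snoRNPs, fell from 66.5 ± 9.1 to 10.0 ± 1.28 CPM (log2 fold change -2.73, SE 0.12; edgeR adjusted p = 2.37e-08), with 19.7% of its words shared with other genes. The H/ACA proteins Gar1 (-0.72, SE 0.081) and Nhp2 (-0.56, SE 0.070), which share no words, fell too, whereas Nop58, the largest C/D core protein by CPM here, was at 175 ± 2.82 and 162 ± 11.6 CPM (-0.11, SE 0.062; edgeR adjusted p = 0.154). Of the 10 genes with under 5% of shared words, 6 fell and 0 rose.

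The decay pathway that removes spliced host RNAs gave 9 lower and 1 higher (Magohb, 0.35) of 15 factors, with a median of -0.27, and 0 were higher without control 1, without AMI-5 replicate 2 or with DESeq2. Upf1, the central helicase, fell from 145 ± 17.8 to 90.3 ± 7.68 CPM (log2 fold change -0.68, SE 0.092; edgeR adjusted p = 0.000131), and the exon junction proteins Eif4a3 (-0.77, SE 0.067), Casc3 (-0.49, SE 0.059) and Magoh (-0.41, SE 0.061) and the phosphatase adaptor Smg5 (-0.52, SE 0.057) fell. Of 6 mRNAs known as substrates of the pathway, 4 rose and 0 fell, with a median of 0.19. For both lists, the shares over all protein-coding genes tested were 20.1% higher and 30.6% lower. Ddit3, a transcription factor of the stress response, rose from 17.3 ± 1.07 to 49.3 ± 6.33 CPM (1.51, SE 0.10; edgeR adjusted p = 1.51e-07), while Atf4 (0.23, SE 0.081), Gadd45b (0.22, SE 0.078) and Tbl2 (0.17, SE 0.060) rose less, with edgeR adjusted p of 0.0322 to 0.0339. Without control 3, 1 of the 6 rose. Atf4 and Ddit3 are also regulated by transcription and translation in stress.

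Genes with a 5′TOP start other than ribosomal proteins moved both ways, with 5 higher and 6 lower of 18 and a median of 0.0034. Protein-coding genes tested also moved both ways, with 20.1% higher and 30.6% lower. Eef1a1, an elongation factor, fell from 5030.0 ± 409.6 to 3156 ± 128 CPM (log2 fold change -0.67, SE 0.071; edgeR adjusted p = 8.55e-06), with 40.4% of its words shared with other genes. Eef2 was at 3451 ± 154 and 3434 ± 40.2 CPM (-0.0071, SE 0.058; edgeR adjusted p = 0.928). Without AMI-5 replicate 3, the counts higher and lower were 0 and 14 for paraspeckle proteins, 1 and 9 for Malat1 processing and speckle proteins, 1 and 9 for snoRNP proteins, 1 and 8 for decay factors, 3 and 0 for decay substrates and 5 and 4 for 5′TOP genes.

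**Figure D5:**
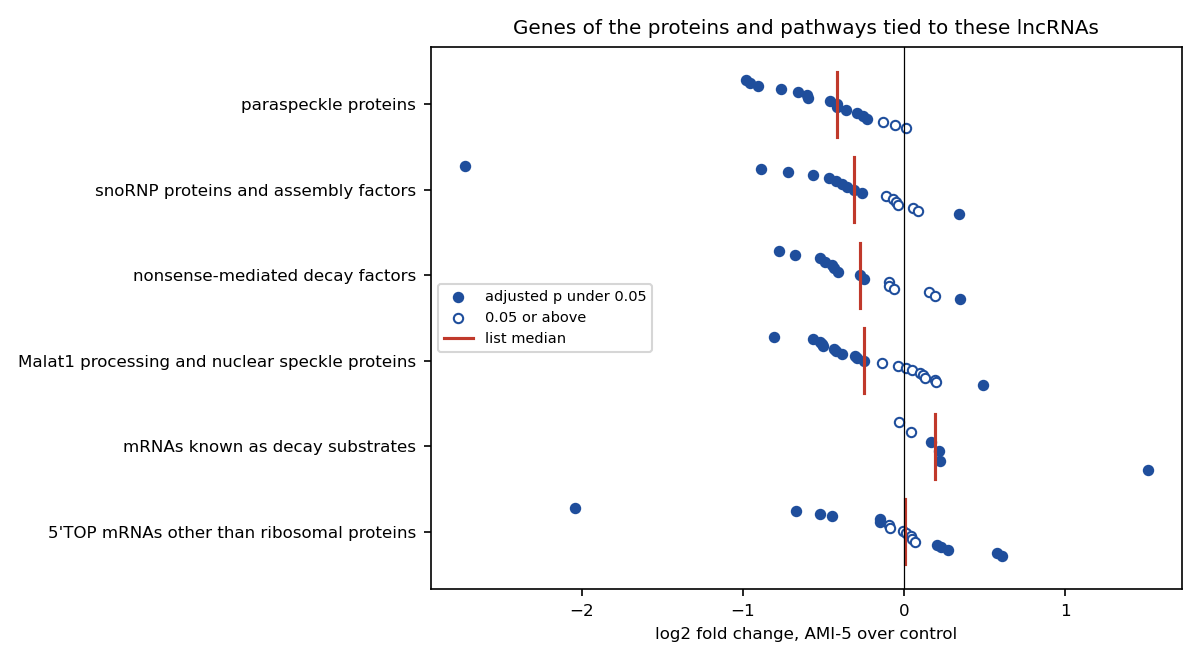
Log2 fold change (AMI-5 over control, x axis) of the genes of 6 lists tied to the 8 lncRNAs (y axis), 1 point per gene, filled for adjusted p under 0.05, with the list median as a red line. Paraspeckle proteins have the lowest median at -0.42 and decay substrates the highest at 0.19, while 5′TOP genes centre on 0.0034.

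For each of the 8 genes, the genes whose level followed it most closely over the 6 libraries were taken among 10401 protein-coding and lncRNA genes with at least 10 CPM, by Euclidean distance of log2(CPM + 0.5) after centring. Nearest to Snhg1 were Nae1 (distance 0.0715), a subunit of the NEDD8-activating enzyme, and Bet1 (0.0794), a SNARE of transport from the endoplasmic reticulum. Snhg8 had Colec12 (0.0709) and Glt8d1 (0.0729), Snhg6 had Ap5m1 (0.0999) and Tmem205 (0.106), and Snhg12 had Elac1 (0.0965). Snhg3 lay nearest to Fam76b (0.0794) and Orc3 (0.0819), a subunit of the origin recognition complex. For Malat1, Neat1 and Gas5 the nearest genes were farther away, at 0.191 for Cramp1l and 0.207 for Ccnj, at 0.189 for Zscan12 and 0.196 for Arhgap25, and at 0.233 for Mpzl2 and 0.27 for Ier2.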

How the data were processed

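Read counts per gene were used as deposited by the authors, not normalized, for 3 control and 3 AMI-5 libraries. The submitters' processing notes name bcl2fastq 2.19.1, GSNAP, featureCounts 1.6.2 and build mm10; annotation was Ensembl release 87, per the file headers. Libraries were strand specific per the labels. The sources used here give no RNA selection, strand setting or treatment of reads with several matches. The deposited gene length, a sum of exon bases per the file headers, scaled CPM per kilobase and entered the length trend.

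The 92 spike-in entries, holding 1 read, were left out. Symbols, classes and GC content came from GENCODE M21, which held 49326 of 49671 identifiers. Genes passing filterByExpr (17519) entered edgeR 4.0.16 in R 4.3.3 (TMM, robust quasi-likelihood F test, two-sided, group as the only term), calling Benjamini-Hochberg adjusted p under 0.05. The common biological coefficient of variation was 9.65%, and depth limits precision most in the controls. No 2 libraries were copies: chi-square per degree of freedom was 6.71 to 16.1 within groups. The scripts were tested on simulated data. Ratios and shares were compared by exact permutation tests.

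The members and 14 gene lists were chosen with earlier results of these data known. Named are the members, snoRNAs inside them, genes that overlap them or start within 2000 bases on the other strand, from each list up to 4 called genes of smallest p and up to 2 of largest mean, and the 2 nearest genes per member. Snu13, Magohb, Pop4, Dancr, Nono, Pspc1, Xist, Ptf1a and Gm42418 are named outside that rule, and some genes it takes are not reported here. Alternatives were no filter, RLE scaling, upper-quartile scaling, scaling by totals only, DESeq2 1.42.0, limma 3.58.1 (voom), protein-coding and lncRNA genes only, trend removal, left-out libraries and a replicate block. Removal of GC or length trend alone was added after seeing the data.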

Additional observations from a re-analysis of the deposited data

How the results depend on the processing

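Under the 18 alternatives, log2 fold changes ranged from 0.14 to 0.56 for Snhg1, from -1.25 to 0.61 for Snhg6, from -0.48 to 0.50 for Snhg12, from -1.74 to 0.38 for Snhg8, from -1.83 to 0.21 for Snhg3, from 0.10 to 0.53 for Gas5, from -0.18 to 0.14 for Neat1 and from -0.68 to -0.26 for Malat1. With both the GC and the length trend removed over the whole table, Snhg3 was at -1.83, Snhg6 at -1.25, Snhg8 at -1.74, Snhg12 at -0.48 and Malat1 at -0.68, all 5 called lower. With both trends removed over protein-coding and lncRNA genes, Malat1 at -0.61 and Snhg3 at -0.35 were called lower, and Snhg8 at -0.14, Snhg1 at 0.14, Snhg6 at 0.038 and Snhg12 at 0.25 were not called. With the GC trend alone removed, Malat1 was at -0.67 (past the threshold), Snhg3 at -0.088, and Snhg1 at 0.18, Snhg6 at 0.25 and Snhg8 at 0.18 were no longer past it; with the length trend alone removed, Snhg3 was at -0.033 and Snhg8 at 0.068. The cause of these shifts was not tested. Totals-only scaling took Snhg8 to 0.21, Neat1 turned to 0.016 with upper-quartile scaling and to 0.019 with protein-coding and lncRNA genes only, and Malat1 passed the threshold at -0.41 with no filter.

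Leaving out 1 library each time gave -0.56 to -0.26 for Malat1 (past the threshold without control 1), -0.18 to 0.14 for Neat1 (0.14 without control 2 and 0.066 without AMI-5 replicate 1), 0.15 to 0.53 for Gas5, 0.42 to 0.56 for Snhg1, 0.44 to 0.61 for Snhg6, 0.26 to 0.38 for Snhg8, 0.34 to 0.50 for Snhg12 and 0.073 to 0.21 for Snhg3. The 4 called hosts passed the threshold in each of these 6 fits.

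Over all genes, 4820 were higher and 4652 lower, and 4481 to 4744 and 3954 to 4316 with 1 library left out. Totals-only scaling gave 3956 and 5891, both trends removed over protein-coding and lncRNA genes 2346 and 3921, the GC trend alone 2081 and 3974, and the length trend alone 3137 and 4656, the last 3 over fewer genes. The sources used here do not say if the replicate numbers pair the samples. The deviations of same-numbered libraries from their group means correlated at -0.0579, -0.0377 and -0.048. These values cannot decide it, since paired samples need not share deviations in expression. With a replicate block, 4704 genes were higher and 4482 lower, Malat1 was past the threshold at -0.42, and the calls of the other 7 genes were the same.

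Of 540 counts of higher or lower genes per list under the alternatives, 441 were within 1.5 times the reported count and 99 were not.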
